A study of Mus musculus with 9 samples.

Results

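Neutrophils reach inflamed tissue by following gradients of chemoattractants, which they sense with receptors of the G protein-coupled family. The 7 genes described here encode receptors for formylated peptides (Fpr1 and Fpr2), for the complement fragments C5a and C3a (C5ar1, C5ar2 and C3ar1), and for the lipid mediators leukotriene B4 (Ltb4r1) and platelet-activating factor (Ptafr). They were selected by gene name, and all 7 of them were found among the 46517 genes of the table. Ly6G+ neutrophils of C57BL/6 mice had been sorted out of the marrow, the circulation and the tumor-bearing pancreas on day 27 after orthotopic transplantation of tumor cells (OT mice), and 9 RNA-seq libraries were made, 3 each for bone marrow, blood and tumor. The transplanted cells were a single luciferase-expressing line of mouse pancreatic ductal adenocarcinoma. All 9 libraries therefore come from tumor-bearing animals, and each library was made from cells pooled from 5 OT mice. The methods describe 3 independent experiments with the compartments taken from the same mice, so the 3 compartments are not independent groups of animals, but the labels do not say which libraries share a pool. The sort gate took live CD45+ Ly6G+ Ly6C+ cells negative for CD3, B220 and NK1.1, and the bone marrow samples carry the further label Ly6G.hi.

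In resting neutrophils the classical chemoattractant receptors couple mainly to Gi proteins. Their βγ subunits activate phospholipase C and phosphoinositide 3-kinase γ, and Rac2 and the Src-family kinases carry the signal on to the cytoskeleton, to adhesion and to the oxidative burst. Formyl peptides, released by bacteria and by damaged mitochondria, and C5a are known as end-target attractants, while leukotriene B4 is known to relay the signal between neutrophils. Receptor kinases and arrestins then silence the occupied receptor.

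The genes lie in part side by side in the genome (GRCm38, GENCODE M21 annotation). Fpr1 (chr17:17876471-17883940, minus strand) and Fpr2 (chr17:17887824-17893952, plus strand) are paralogs that point away from each other, with 3883 bases between them. C5ar1 (chr7:16246743-16259540) and C5ar2 (chr7:16234585-16244154) follow each other on the minus strand, 2588 bases apart. C3ar1 lies at chr6:122847138-122856161 on the minus strand, Ltb4r1 at chr14:55765962-55768494 on the plus strand and Ptafr at chr4:132564067-132582683 on the plus strand. All 7 are annotated as protein coding. Exons of Fpr2 overlap those of Fpr3 on the same strand, so reads there could be assigned to either gene or dropped, and Fpr3 was listed with 0 to 2 reads in a library.

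The RefSeq promoter table (GRCm38.p6) held all 7 genes, with 8 start sites. The 250 bases before the start were searched on both strands for GAGGAA, the core bound by the myeloid factor PU.1, for TTNNGNAA, a form of the C/EBP site, and for ACGTG, the core of the hypoxia response element. The sequences of the divergent pair Fpr1 and Fpr2 are shown because both genes fell in the tumor, that of Ltb4r1 because it was lower already in blood, and that of C3ar1 because it rose from a very low level. Matches to the PU.1 and C/EBP letters stand in capitals. They are given 5′ to 3′ on the strand of the gene, for Fpr1 at chr17:17883940-17884189, Fpr2 at chr17:17887574-17887823, Ltb4r1 at chr14:55765712-55765961 and C3ar1 at chr6:122856158-122856407.
Fpr1: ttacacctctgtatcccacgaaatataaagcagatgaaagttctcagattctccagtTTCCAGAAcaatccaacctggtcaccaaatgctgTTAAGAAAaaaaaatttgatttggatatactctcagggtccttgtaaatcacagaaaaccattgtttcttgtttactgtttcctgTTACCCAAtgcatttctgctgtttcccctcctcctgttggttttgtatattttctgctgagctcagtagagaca
Fpr2: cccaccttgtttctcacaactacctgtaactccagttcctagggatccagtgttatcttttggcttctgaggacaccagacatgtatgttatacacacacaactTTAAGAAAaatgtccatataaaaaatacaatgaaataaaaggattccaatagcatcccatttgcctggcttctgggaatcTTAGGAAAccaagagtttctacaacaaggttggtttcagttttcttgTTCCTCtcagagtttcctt
Ltb4r1: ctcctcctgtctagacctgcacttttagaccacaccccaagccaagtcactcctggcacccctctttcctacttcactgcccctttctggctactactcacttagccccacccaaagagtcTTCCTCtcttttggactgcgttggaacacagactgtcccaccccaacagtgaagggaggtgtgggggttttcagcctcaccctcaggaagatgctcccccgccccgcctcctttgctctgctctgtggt
C3ar1: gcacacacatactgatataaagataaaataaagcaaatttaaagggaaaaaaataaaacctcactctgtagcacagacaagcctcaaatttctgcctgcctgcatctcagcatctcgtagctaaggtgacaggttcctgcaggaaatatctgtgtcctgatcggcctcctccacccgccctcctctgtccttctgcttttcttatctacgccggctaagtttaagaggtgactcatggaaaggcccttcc
The Fpr1 window held 3 C/EBP matches, the Fpr2 window 2 C/EBP matches and 1 PU.1 match, and the Ltb4r1 window 1 PU.1 match. The C3ar1 window held none of the 3 motifs, and the hypoxia response core was found in none of the 8 windows. Among all 32851 promoter windows of the same length, 23.3% held the PU.1 letters, 36.8% the C/EBP letters and 16.6% the hypoxia response core. Such short matches describe the letters in the window and do not show binding.

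The libraries held 4580807 to 7949367 reads. The neutrophil identity of the sort was checked with 12 markers, all of which had reads in every compartment. Their summed level was 127642 to 142254 RPM (reads-per-million units on the scaled library size) for bone marrow, 41833 to 44174 RPM for blood and 15296 to 19299 RPM for tumor. Members of the list differed, as Camp, Ngp and Ltf were called higher in tumor than in blood, and Cxcr2 and Csf3r higher in blood than in bone marrow. In the tumor libraries, the summed level of 10 tumor epithelial markers was 2448 to 4655 RPM, that of 8 acinar markers 769 to 2877 and that of 8 fibroblast markers 1125 to 1269, each above every blood and bone marrow library. In the blood libraries, 6 platelet markers summed to 536 to 740 RPM (6.63 to 12.0 in bone marrow), 6 red cell markers to 284 to 576 RPM (31.8 to 71.2 in bone marrow) and 9 lymphocyte markers to 89.8 to 150 RPM (31.8 to 60.1 in bone marrow). The part of these other cells in the receptor differences was not tested. In bulk RNA, fewer cells of a type and less RNA per cell cannot be told apart.

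In each of the 3 comparisons receptors were called in both directions (adjusted p under 0.05, limma with Benjamini-Hochberg adjustment over the 7794 genes tested). In blood against bone marrow, C5ar1, C5ar2, C3ar1 and Ptafr were higher and Fpr1, Fpr2 and Ltb4r1 lower, which is 4 and 3 of 7 genes where 20.6% of all genes tested were called higher and 23.6% lower. In tumor against bone marrow, 2 genes (C3ar1 and Ptafr) were higher and 5 lower, against 22.4% and 32.9% of all genes. In tumor against blood, 1 gene (C3ar1) was higher, 5 were lower and Ptafr was not called, against 28.1% and 34.5% of all genes. The 3 libraries of one compartment did not overlap those of the other for 7 of 7 genes in both comparisons with bone marrow, where 58.8% (blood) and 63.9% (tumor) of all genes did not overlap, and for 6 of 7 genes in tumor against blood, where 67.0% did not. All 7 genes passed the filter on low values, which kept genes whose log2 FPKM exceeded 0 in 3 or more libraries. C3ar1 passed it through the tumor libraries and 1 blood library, so the counts describe the set and are not evidence on it.

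The median log2 fold change of the 7 receptors was 0.60 in blood against bone marrow, -0.68 in tumor against bone marrow and -1.13 in tumor against blood. Over all genes tested the medians were -0.04, -0.21 and -0.17. These values rest on the library sizes scaled by the authors, with factors of 1.08 to 1.22 in tumor and 0.796 to 0.881 elsewhere. With plain library totals the median of all genes moved up by 0.42 in both tumor comparisons, and the calls turned from 2194 higher and 2686 lower to 2892 higher and 1916 lower in tumor against blood, and from 1745 and 2566 to 2580 and 1654 in tumor against bone marrow. The receptor medians then became -0.69 in tumor against blood and -0.23 in tumor against bone marrow, while that of blood against bone marrow was 0.60 as before. After quantile normalization they were -0.80, -0.43 and 0.47. Calls that the scaling touched are named beside each gene.

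**Figure D1:**
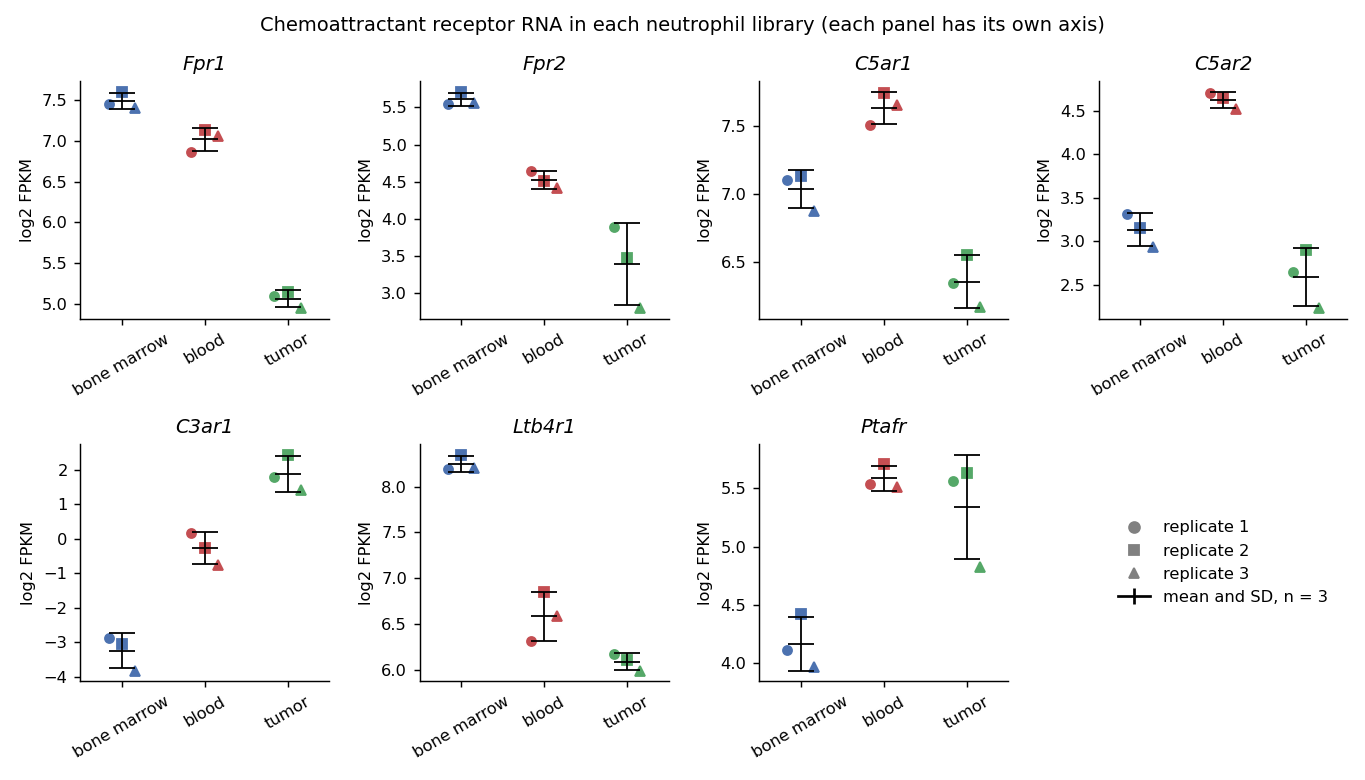
Log2 FPKM of the 7 receptor genes (vertical axes, 1 scale per panel) in the bone marrow, blood and tumor libraries (points, symbols give the replicate number), with mean and SD (n = 3). Fpr1, Fpr2 and Ltb4r1 step down from bone marrow to tumor, C5ar1 and C5ar2 peak in blood, C3ar1 steps up, and Ptafr is higher in blood and tumor than in bone marrow.

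Fpr1, the high-affinity receptor for N-formyl peptides, had log2 FPKM values of 7.46, 7.61 and 7.41 in bone marrow, 6.86, 7.14 and 7.06 in blood, and 5.10, 5.15 and 4.95 in tumor. The compartments did not overlap, and most of the fall lay between blood and tumor. It fell by 0.47 on the log2 scale from bone marrow to blood (SE 0.10, adjusted p = 0.00746, limma) and by 1.96 from blood to tumor (SE 0.10, adjusted p = 4.73e-06). Tumor neutrophils thus held 5.39-fold less Fpr1 RNA than bone marrow neutrophils (log2 fold change -2.43, SE 0.10, adjusted p = 2.86e-06). Only 5.84% of all genes tested had a lower fold change in that comparison.

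Fpr2, which binds formyl peptides with lower affinity and also annexin A1, cathelicidin and serum amyloid A, read 5.55, 5.71 and 5.56 log2 FPKM in bone marrow. It read 4.65, 4.51 and 4.41 in blood, and 3.89, 3.47 and 2.80 in tumor. It too fell at each step, but the 3 tumor libraries were spread over more than 1 log2 unit while the bone marrow libraries were close together. It fell by 1.09 from bone marrow to blood (SE 0.24, adjusted p = 0.0085, limma) and by 1.13 from blood to tumor (SE 0.24, adjusted p = 0.00411), and the tumor level was 4.66-fold below bone marrow (adjusted p = 0.000158). Fpr1 and Fpr2 are similar in sequence, and how the authors' counting split reads that fit both was not tested.

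From bone marrow to blood Fpr2 fell more than Fpr1, and from blood to tumor it fell less. Set per exonic length, which allows genes to be compared within a library, Fpr1 exceeded Fpr2 by 4.40-fold in bone marrow, 6.74-fold in blood and 3.81-fold in tumor. The log2 ratio of Fpr2 to Fpr1 differed among the compartments (exact one-sided permutation test over 280 splits, p = 0.0357, Benjamini-Hochberg adjusted over 4 ratios 0.0357). It was 0.61 ± 0.14 (SE) log2 units lower in blood than in bone marrow and 0.82 ± 0.31 higher in tumor than in blood, in both cases with no overlap of libraries. With 3 against 3 libraries the exact p cannot go below 0.1, the value each of these differences gave. The nearest log2 ratios of tumor and blood, per exonic length, were -2.40 in tumor replicate 3 and -2.47 in blood replicate 1. Tumor and bone marrow ratios overlapped (difference 0.21 ± 0.27). The other mouse formyl peptide receptors, Fpr-rs3, Fpr-rs4, Fpr-rs6 and Fpr-rs7, had 0 reads in all 9 libraries.

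C5ar1, the main signalling receptor for C5a, measured 7.10, 7.13 and 6.87 log2 FPKM in bone marrow, 7.51, 7.74 and 7.65 in blood, and 6.34, 6.55 and 6.17 in tumor. Every blood library was above every bone marrow library and every tumor library below both. The gene was 1.52-fold higher in blood than in bone marrow (log2 fold change 0.60, SE 0.13, adjusted p = 0.0065, limma) and 2.43-fold lower in tumor than in blood (-1.28, SE 0.13, adjusted p = 7.62e-05). The difference between tumor and bone marrow was -0.68 (SE 0.13, adjusted p = 0.00248), which became -0.23 (adjusted p = 0.0507) with plain library totals.

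C5ar2, a C5a receptor that does not couple to G proteins and works through arrestin, had the same order at a lower level. Its log2 FPKM was 3.31, 3.16 and 2.93 in bone marrow, 4.71, 4.64 and 4.53 in blood, and 2.64, 2.90 and 2.23 in tumor. The rise into blood was 2.81-fold (log2 fold change 1.49, SE 0.18, adjusted p = 0.000426, limma), and the tumor value was 4.10-fold below blood (-2.03, SE 0.18, adjusted p = 3.9e-05). The gap between tumor and bone marrow was small, -0.54 (SE 0.18, adjusted p = 0.0309), and was lost in 8 of 20 alternative analyses. Among these were plain library totals (-0.09, adjusted p = 0.626) and the fits without bone marrow replicate 1 (-0.45, adjusted p = 0.101), bone marrow replicate 2 (-0.53, 0.0791), tumor replicate 1 (-0.57, 0.0586) or tumor replicate 3 (-0.36, 0.0651).

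C5ar2 moved further than its neighbour C5ar1. C5ar1 stood 27.7-fold above C5ar2 per exonic length in bone marrow, 14.9-fold in blood and 25.2-fold in tumor, and the ratio differed among compartments (exact permutation p = 0.00714, adjusted 0.0143). The log2 ratio of C5ar2 to C5ar1 was 0.89 ± 0.12 (SE) higher in blood than in bone marrow and 0.75 ± 0.14 lower in tumor than in blood, without overlap. Between tumor and bone marrow it differed by 0.14 ± 0.10, and the libraries overlapped. A ratio of genes within a library does not depend on how that library was scaled.

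C3ar1, the receptor for the anaphylatoxin C3a, was the lowest of the 7 and rose at each step. It was covered by 8, 6 and 4 reads in bone marrow, 40, 42 and 25 in blood, and 191, 369 and 190 in tumor. The log2 FPKM was -2.87, -3.04 and -3.82, then 0.17, -0.26 and -0.75, then 1.77, 2.44 and 1.41, so no compartments overlapped. It was 7.82-fold higher in blood than in bone marrow (log2 fold change 2.97, SE 0.40, adjusted p = 0.000765, limma) and 4.44-fold higher in tumor than in blood (2.15, SE 0.40, adjusted p = 0.00192). Tumor against bone marrow gave 5.12 (SE 0.40, adjusted p = 2.65e-05), above 95.7% of the genes tested. C3ar1 entered that set through its tumor libraries and 1 blood library, so the rank partly restates the filter. With so few bone marrow reads the size of the fold depends on the constant added before the log, and with a pseudocount of 1 FPKM it became 2.08 for tumor against bone marrow, 0.73 for blood against bone marrow and 1.35 for tumor against blood.

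Monocytes and macrophages also express C3ar1, so their markers were set beside it. The summed level of 13 monocyte and macrophage markers was 607 to 615 RPM for bone marrow, 1568 to 1773 RPM for blood and 427 to 601 RPM for tumor. Csf1r had the highest median reads of the list in every compartment, with 1808 to 2123 reads in bone marrow libraries, 4796 to 6885 in blood and 1254 to 1709 in tumor. Members of the list differed. Ms4a7 had no read in any blood library. C1qb, a macrophage complement gene, had 60 to 87 reads per tumor library, 29 to 51 per bone marrow library and 19 to 29 per blood library. Per tumor and blood library, C1qa had 30 to 33 and 3 to 12 reads, and Mrc1 18 to 58 and 6 to 13. Ccr2 had 38 to 56 and 229 to 393, and Cx3cr1 0 to 5 and 22 to 66. The part of monocytes and macrophages in the C3ar1 differences was not tested. C5ar1 stood 2954-fold above C3ar1 per exonic length in bone marrow, 573-fold in blood and 53.1-fold in tumor (exact permutation p = 0.00357, the smallest that 280 splits allow, adjusted 0.0143). The bone marrow value rests on 4 to 8 C3ar1 reads a library, and with a pseudocount of 1 FPKM the log2 ratio differed between blood and bone marrow by 0.13 instead of 2.37.

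Ltb4r1 encodes BLT1, the high-affinity leukotriene B4 receptor. It measured 8.19, 8.35 and 8.20 log2 FPKM in bone marrow, 6.31, 6.85 and 6.59 in blood, and 6.17, 6.11 and 5.99 in tumor. The larger step lay between bone marrow and blood, where the level was 3.17-fold lower in blood (log2 fold change -1.67, SE 0.14, adjusted p = 8.57e-05, limma). Tumor was 4.46-fold below bone marrow (-2.16, SE 0.14, adjusted p = 1.11e-05). The further difference between tumor and blood was -0.49 (SE 0.14, adjusted p = 0.0148), with no overlap of libraries, but it rested on the scaling: it was -0.04 (adjusted p = 0.769) with plain library totals and 0.12 (adjusted p = 0.381) after quantile normalization. Ltb4r2, the low-affinity receptor, had 0 to 7 reads per library and was not tested.

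Ptafr, the receptor for platelet-activating factor, gave 4.11, 4.42 and 3.97 log2 FPKM in bone marrow, 5.54, 5.71 and 5.51 in blood, and 5.56, 5.64 and 4.82 in tumor. Blood and tumor were both above bone marrow and overlapped each other, with tumor replicate 3 below the other 5 libraries. The rise from bone marrow was 2.68-fold in blood (log2 fold change 1.42, SE 0.22, adjusted p = 0.00162, limma) and 2.26-fold in tumor (1.17, SE 0.22, adjusted p = 0.00267). Tumor and blood differed by -0.25 (95% confidence interval -0.76 to 0.27, adjusted p = 0.362). The sign of this difference was not settled: it was 0.20 with plain library totals, 0.29 after quantile normalization and 0.01 without tumor replicate 3.

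The lipid receptors changed places. Ltb4r1 was 6.01-fold above Ptafr per exonic length in bone marrow, while Ptafr was 1.41-fold above Ltb4r1 in blood and 1.67-fold in tumor (exact permutation p = 0.0143, adjusted 0.019). The log2 ratio of Ptafr to Ltb4r1 rose by 3.09 ± 0.14 (SE) from bone marrow to blood, and tumor and blood ratios overlapped (difference 0.24 ± 0.24).

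**Figure D2:**
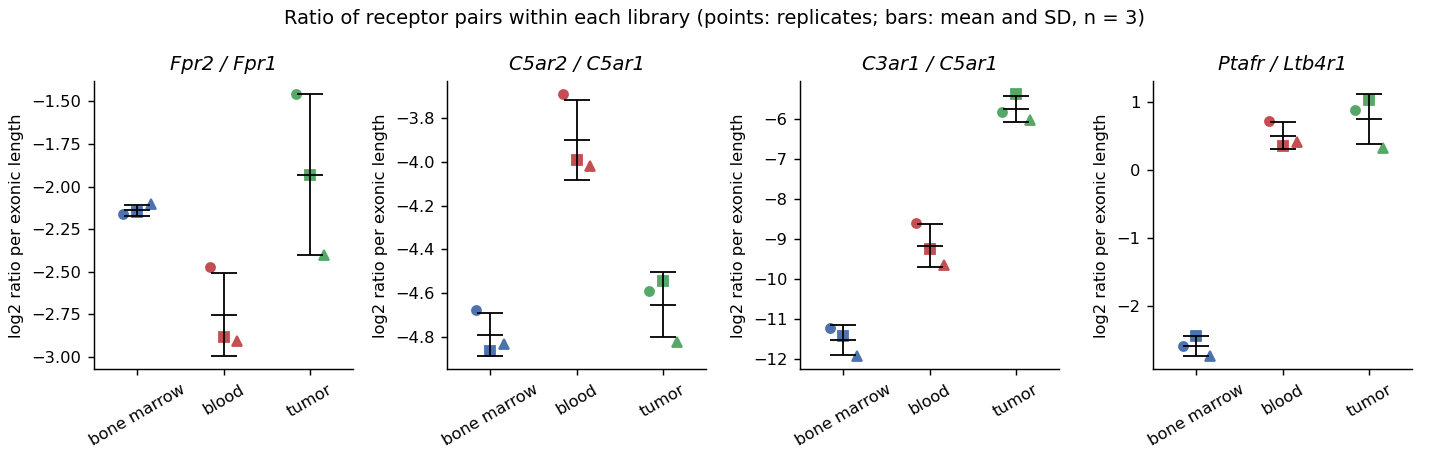
Log2 ratio per exonic length of 4 receptor pairs within each library (vertical axes), by compartment, with mean and SD (n = 3). The ratio of C3ar1 to C5ar1 rises at each step, Ptafr to Ltb4r1 crosses 0 between bone marrow and blood, C5ar2 to C5ar1 is highest in blood, and Fpr2 to Fpr1 is lowest there.

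**Figure D3:**
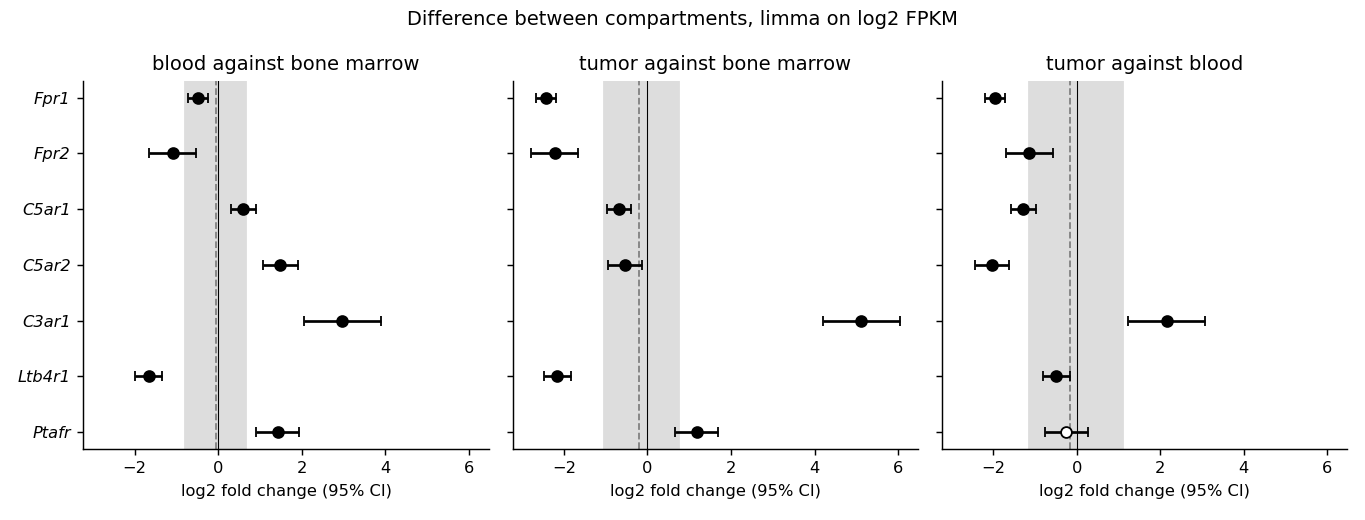
Log2 fold changes of the 7 receptors (points, filled where the adjusted p was under 0.05) with 95% confidence intervals from limma, for the 3 comparisons. The grey band spans the middle 50% of all genes tested and the dashed line their median. C3ar1 lies to the right of the band in all 3 panels, and the fall of Fpr1 and Fpr2 is larger in tumor than in blood when each is set against bone marrow.

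Levels of different genes were compared as RPM per kilobase of exon, mean ± SD over 3 libraries. In bone marrow the order was Fpr1 (1018 ± 72.3), C5ar1 (655 ± 62.3), Ltb4r1 (553 ± 34.5), Fpr2 (231 ± 14.3), Ptafr (92.7 ± 15.2), C5ar2 (23.7 ± 3.1) and C3ar1 (0.22 ± 0.072). C5ar1 and Ltb4r1 overlapped and all other neighbours in the order were separate. Blood neutrophils held most C5ar1 (993 ± 81.0), then Fpr1 (735 ± 71.5), Ptafr (246 ± 18.9), Ltb4r1 (176 ± 32.7), Fpr2 (109 ± 8.95), C5ar2 (66.4 ± 4.23) and C3ar1 (1.78 ± 0.56), with no overlap between neighbours. In tumor C5ar1 was again highest (410 ± 55.1), followed by Ptafr (214 ± 60.0) and Fpr1 (189 ± 13.2), which overlapped, and then by Ltb4r1 (124 ± 7.88), Fpr2 (51.8 ± 18.7), C5ar2 (16.5 ± 3.71) and C3ar1 (8.01 ± 2.98). Fpr1 thus moved from the top of the order in bone marrow to a place shared with Ptafr in tumor. These are steady-state RNA levels, and receptor protein at the cell surface was not measured in these libraries.

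**Figure D4:**
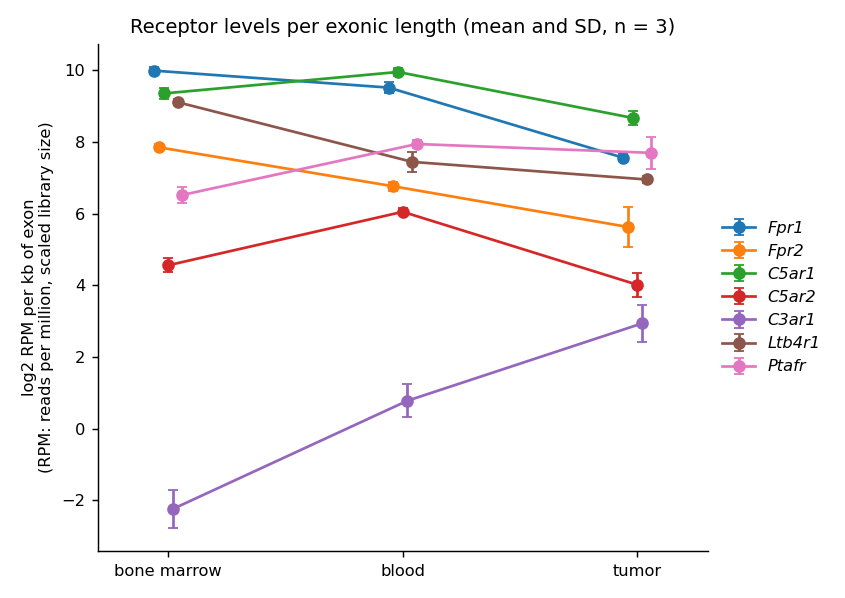
Receptor levels on a log2 scale (RPM per kilobase of exon), mean and SD over 3 libraries per compartment, with lines joining the means of a gene. The lines of Fpr1 and C5ar1 cross between bone marrow and blood, and C3ar1 stays below all other receptors in each compartment.

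Genes that act with these receptors were counted from lists of ligands, ligand-making enzymes and signalling parts, and only those that passed the filter were tested. Some passed it through a single compartment, so the counts describe the lists and are not evidence on them. As set out above, 28.1% of all genes tested were called higher and 34.5% lower in tumor against blood, 22.4% and 32.9% in tumor against bone marrow, and 20.6% and 23.6% in blood against bone marrow. On the ligand side of the formyl peptide receptors, 4 of 6 genes were tested, and 3 were higher and 1 lower in tumor against blood (median 1.85), 2 and 2 in tumor against bone marrow (median 0.23), and 1 and 2 in blood against bone marrow (median -0.18). With plain library totals the median for tumor against bone marrow was 0.67. Saa3, counted as higher in tumor, passed the filter through tumor alone. It had 28 to 43 reads in tumor libraries, 3 to 12 in blood and 2 to 3 in bone marrow. Anxa1, whose product annexin A1 is a pro-resolving ligand of Fpr2, fell by 1.17 from bone marrow to blood (adjusted p = 0.00068, limma) and by 1.89 from blood to tumor (adjusted p = 2.72e-05). Camp, which encodes the cathelicidin peptide and is also one of the neutrophil markers, fell by 6.57 from bone marrow to blood (adjusted p = 1.37e-05) and was 2.02 higher in tumor than in blood (adjusted p = 0.000829). Mif, a cytokine placed in this list, is not a ligand named above for Fpr1 or Fpr2, and the medians include it. It was 2.98 higher in tumor than in blood (adjusted p = 0.000247). In tumor against bone marrow Mif measured 3.79 and Saa3 3.53, while Anxa1 measured -3.07 and Camp -4.56.

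Of 12 complement genes 7 were tested. In tumor against blood 2 were higher and 3 lower (median -0.58), in tumor against bone marrow 2 and 5 (median -1.05), and in blood against bone marrow 2 and 3 (median -0.32). The complement values moved with the scaling, to 3 higher and 3 lower (median -0.14) with plain library totals and 3 higher and 4 lower (median -1.27) after quantile normalization in tumor against blood, and to 2 and 4 (median -0.60) with plain library totals in tumor against bone marrow. Cfd, which encodes complement factor D, had 74 to 217 reads in tumor libraries against 0 in bone marrow and 0 to 1 in blood, and passed the filter through tumor alone. C3, the precursor of C3a, was lower in tumor than in bone marrow (-1.59, adjusted p = 4.62e-05, limma) and measured 0.35 against blood (adjusted p = 0.0554). Cfp, encoding properdin, was lower in tumor than in blood (-1.80, adjusted p = 4.29e-05). Cd55, which encodes an inhibitor of complement at the cell surface, was already lower in blood than in bone marrow (-2.94, adjusted p = 0.000383), but passed the filter through bone marrow alone.

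All 5 genes of leukotriene B4 synthesis and breakdown were tested. In tumor against blood 2 were higher and 3 lower (median -1.26), in tumor against bone marrow 0 and 4 (median -2.27), and in blood against bone marrow 1 and 3 (median -0.39). The tumor against blood median was -0.81 with plain library totals and -0.70 after quantile normalization, and either scaling left 3 genes lower in tumor against bone marrow. Alox5, the 5-lipoxygenase, changed by -1.88 (adjusted p = 6.3e-06, limma) and its partner Alox5ap by -2.56 (adjusted p = 7.75e-06) from blood to tumor. Lta4h, whose enzyme makes leukotriene B4, was lower in blood than in bone marrow (log2 fold change -3.63, adjusted p = 1.44e-05), at the same step as the large fall of Ltb4r1. Among 6 tested of 8 genes of platelet-activating factor metabolism, 3 were higher and 2 lower in tumor against blood (median 0.18), 1 and 1 in tumor against bone marrow (median -0.14) and 2 and 1 in blood against bone marrow (median -0.16). Pafah1b3, counted as higher in both tumor comparisons, passed the filter through tumor alone. It had 40 to 74 reads in tumor libraries, 3 to 8 in blood and 5 to 10 in bone marrow. With plain library totals the median for tumor against bone marrow turned to 0.31, and with quantile normalization that for blood against bone marrow turned to 0.14. Lpcat2, an enzyme that makes platelet-activating factor, and Pla2g7, one that degrades it, shared a peak in blood: they rose by 0.89 (adjusted p = 0.000536) and 2.47 (adjusted p = 2.18e-05) from bone marrow and differed by -2.23 (adjusted p = 4e-06) and -2.57 (adjusted p = 6.38e-06) in tumor against blood. Pafah2, of the same list, went the other way. It measured -3.69 in blood against bone marrow (adjusted p = 0.000184) and 2.86 in tumor against blood (adjusted p = 0.000268). Pafah2 passed the filter through bone marrow, where it had 201 to 328 reads per library, against 10 to 29 in blood and 137 to 233 in tumor.

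Downstream of the receptors, 7 of 13 G protein subunits were tested. In tumor against blood 0 were higher and 4 lower (median -0.73), in tumor against bone marrow 1 and 6 (median -1.10), and in blood against bone marrow 1 and 3 (median -0.24). With plain library totals the counts became 2 higher and 2 lower in tumor against blood (median -0.28), and 1 and 4 in tumor against bone marrow (median -0.65). Gnai2, the main Gi subunit of leukocytes, measured -1.78 in tumor against blood (adjusted p = 1.94e-05, limma) and -0.02 in blood against bone marrow (adjusted p = 0.919). Gna15, which can couple the C5a receptor C5ar1 to phospholipase C, was lower in blood (-3.44, adjusted p = 0.000542) and in tumor (-2.83, adjusted p = 0.000844) than in bone marrow. It passed the filter through bone marrow alone.

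Of 23 G protein effectors 18 were tested. In tumor against blood 15 were lower and 1 higher (median -1.84), beside 34.5% and 28.1% of all genes tested (median -0.17). In tumor against bone marrow 16 were lower and 0 higher (median -1.44), beside 32.9% and 22.4% of all genes (median -0.21). The counts with plain library totals were 15 lower and 1 higher, and 15 lower and 0 higher. In blood against bone marrow 5 were higher and 3 lower (median 0.12). Pik3cd and the phosphoinositide 3-kinase γ adaptors Pik3r6 and Pik3r5 had the largest differences in tumor against blood, -2.76 (adjusted p = 2.65e-06, limma), -2.58 (adjusted p = 2.92e-05) and -2.46 (adjusted p = 1.48e-05). Rac2, the haematopoietic Rac needed for the oxidative burst, was lower in tumor than in bone marrow (-2.39, adjusted p = 4.61e-06). The single effector that was higher in tumor than in blood was Plcb3, a phospholipase C (1.88, adjusted p = 0.00394).

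For receptor desensitization, 6 of the 9 names found among 12 searched were tested, and the receptor kinase now called Grk2 stands in the table under its older symbol Adrbk1. In tumor against blood 0 were higher and 5 lower (median -1.31), in tumor against bone marrow 0 and 6 (median -1.74), and in blood against bone marrow 1 and 2 (median -0.22). With plain library totals 3 were lower in tumor against blood (median -0.86) and 4 in tumor against bone marrow (median -1.28). Arrb2, encoding β-arrestin 2, which binds the occupied receptors, was -1.42 in tumor against blood (adjusted p = 6.37e-05, limma) and -2.05 in tumor against bone marrow (adjusted p = 1.27e-05). Of 18 other receptors for chemoattractants and lipid mediators, 8 were tested, and 3 were higher and 2 lower in tumor against blood (median 0.55), 4 and 2 in tumor against bone marrow (median 0.51), and 3 and 3 in blood against bone marrow (median 0.38). With plain library totals the tumor medians were 1.00 and 0.96. Ccrl2, an atypical receptor that binds chemerin, was 7.62 log2 units higher in tumor than in blood (adjusted p = 1.85e-06), with 22295 to 33124 reads against 61 to 126. S1pr4, a sphingosine 1-phosphate receptor of leukocytes, was lower in tumor than in bone marrow (-4.27, adjusted p = 4.03e-06).

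**Figure D5:**
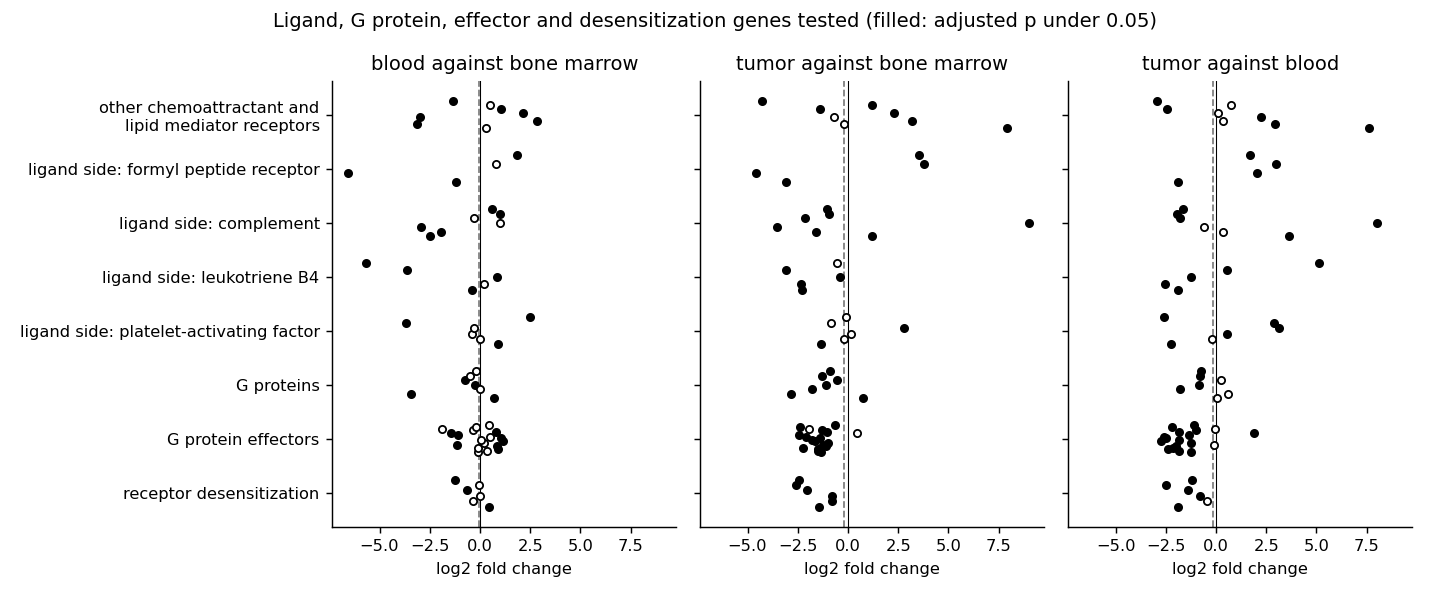
Log2 fold changes of the genes tested in 8 lists (rows) for the 3 comparisons, 1 point per gene, filled where the adjusted p was under 0.05. The dashed line is the median of all genes tested. In both tumor panels nearly all G protein effectors and desensitization genes lie to the left of 0, while the other receptors and the ligand lists lie on both sides, except that all 5 leukotriene B4 genes lie to the left in tumor against bone marrow.

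For each receptor the genes with the most similar profile over the 9 libraries were found, by the root mean square distance of log2 FPKM values centred on each gene's mean. The nearest to Fpr1 was Alox5 (distance 0.080, Pearson's r 0.999 over 9 libraries), the enzyme that starts leukotriene synthesis, followed by Rgs19 and Tcp11l2. Plbd1, Abracl and Milr1 were nearest to Fpr2, with distances of 0.128 to 0.150. C5ar1 lay nearest to Atp6ap1 (0.079), Taz and Antxr2, and C5ar2 to Lrrc25 (0.089), Slc2a6 and Adam19. For C3ar1 the nearest was Il1b, the gene of the inflammatory cytokine interleukin-1β, at a larger distance (0.416, r 0.984), then Bcl2a1a and Tubb6. Ltb4r1 was nearest to Tuba4a (0.146), Degs1 and Pnpla8. Ptafr was nearest to Ankrd33b (0.137), Csf2rb2 and Adgre1, of which Adgre1 is itself a macrophage marker and lay at 0.154. With 3 compartments and 3 libraries each, such closeness mainly describes the compartment means, and genes in the same libraries share their depth and scaling.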

How the data were processed

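Per the labels, RNA of sorted neutrophils was made into SMARTSeq v2 libraries and sequenced as paired ends. The submitters' processing notes name STAR 2.5.2b, featureCounts 1.5.0 and edgeR 3.8.6. The authors deposited log2 FPKM values for 46517 genes in 9 libraries. Whole reads could be recovered for all 46517 genes (tolerance 1e-06), with 0.25 reads added before the log in a library of mean size. The FPKM length was the genomic span for 84.5% of matched genes, the 7 receptors included, so levels between genes used exonic length (GENCODE M21). Differences were fitted with limma 3.58.1 (R 4.3.3, intensity trend) to the log2 FPKM of all 9 libraries, for 7794 genes with log2 FPKM over 0 in at least 3 libraries. Benjamini-Hochberg adjustment ran over all genes tested, with a threshold of 0.05. Ratios were tested by exact permutation. SE of ratio differences come from the SDs of 3 libraries. The recovery of reads and the limma fit were each first tested on simulated data with known answers. Members and gene lists were chosen with earlier results of these data known. Genes other than receptors are named by list (at most 3 with the largest called change in a comparison, or one a result turns on) or as the 3 nearest profiles. Ltb4r2 and single cell type markers were named outside this rule, after their values were seen. Intervals of the limma fit cover only the spread between pools within compartments, estimated per gene over all 9 libraries and moderated across genes. An interval for a pair of compartments therefore also carries the spread of the remaining compartment.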

Additional observations from a re-analysis of the deposited data

How the results depend on the processing

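Each of the 21 receptor differences was refitted under up to 20 alternatives (filters, pseudocounts, scalings, variance models, limma-voom on recovered reads, a replicate block, and each library left out). Of 417 refits, 403 kept their direction and their side of the threshold, 14 did not, and 17 of the 21 differences held in every one of their own alternatives. The 4 that did not were Ltb4r1 and Ptafr between tumor and blood, and C5ar1 and C5ar2 between tumor and bone marrow. Quantile normalization turned Ltb4r1 from -0.49 to 0.119 (adjusted p = 0.381) and plain library totals gave -0.04. Ptafr, not called in any setting, turned from -0.25 to 0.202 with plain library totals, 0.295 with quantile normalization and 0.0121 without tumor replicate 3 (range with each library left out -0.394 to 0.0121). C5ar1 fell short only with plain library totals (-0.23, adjusted p = 0.0507). C5ar2 lost its call without a filter (adjusted p = 0.0544), with plain library totals (0.626), with quantile normalization (0.0676), with only 2 compartments in the fit (0.069) and without each of 4 libraries (0.0586 to 0.101). The causes were not tested. C3ar1 was not tested under the stricter filter and so had 19 alternatives. The number of receptors called stayed within 1.5 times the main count in every alternative.

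The ratio of C3ar1 to C5ar1 depended on the pseudocount: tumor exceeded blood by 3.43 and bone marrow by 5.80, and blood exceeded bone marrow by 2.37. These became 2.62, 2.76 and 0.13 with a pseudocount of 1 FPKM. With a pseudocount of 0.1 FPKM the comparisons with bone marrow gave 4.86 (tumor) and 1.56 (blood).

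With the replicate block, tumor against blood gave 6 receptors called and tumor against bone marrow 7, as without it, and the block changed no call of a receptor. Deviations of libraries with the same number correlated at -0.071 to 0.108, not all above 0.1, and the labels do not tie a number to an experiment or pool, so the numbers were not taken to pair the libraries. The count of all genes called was 4880 in tumor against blood, 8963 without a filter, 2562 with the stricter filter and 9759 with limma-voom, on other numbers of genes tested. The same counts for tumor against bone marrow were 4311, 7351, 2378 and 8914. For blood against bone marrow it was 3446, with 1924 under the stricter filter and 5361 with limma-voom. With 3 pools per compartment the exact test of a ratio between compartments cannot go below 0.1, and depth limits only C3ar1, at 4 to 8 reads in bone marrow.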
